A study of Sus scrofa with 22 samples.

Results

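The 63 genes described here encode proteins of the cytosolic ribosome. They were all genes whose only annotated symbol was RPL or RPS followed by a number, together with RPLP0, RPLP1, RPLP2 and RPSA and without the RPS6K kinases. They made up 63 of the 6765 genes named on the array, 38 of the large and 25 of the small ribosomal subunit. They were read by 95 probe sets, and each gene was followed through its brightest probe set. Transcript levels came from 22 pigs, the offspring of German Landrace gilts that had all received the gestational adequate protein diet, with 1 Affymetrix porcine array per animal. Of these, 6 were fetuses taken 94 days post conception (94 dpc). A further 6 were sampled on postnatal day 1 (1 dpn), 6 on day 28 (28 dpn) and 4 on day 188 (188 dpn). Since every dam received the same diet, the comparisons are between ages and not between diets. Offspring of 3 gilts were used per age, but the labels do not tie an animal to its dam, so p-values treat possible littermates as independent. The labels disagreed on the tissue, with liver in the sample descriptions and muscle in the title of the study. All 22 measured skeletal muscle markers (of 28 listed) were above background at every age. Of 20 measured liver markers (of 26 listed) 17 were above background at 94 dpc and at 1 dpn, 15 at 28 dpn and 13 at 188 dpn. Between 94 dpc and 188 dpn 18 of the 22 muscle markers rose and 0 fell, while 0 of the 20 liver markers rose and 5 fell. Of all probe sets 13.6% rose and 22.5% fell over this interval. The summed signal of the muscle markers was 466103 to 617684 at 94 dpc and 1152130 to 1174770 at 188 dpn. That of the liver markers was 8137 to 61937 at 94 dpc and 2413 to 8323 at 188 dpn. At both ages the muscle sums lay above the liver sums, which goes with the muscle of the title. Levels of different probe sets are not strictly comparable, so the disagreement of the labels is stated and not settled here.

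A ribosome joins a small subunit, which reads the mRNA, to a large subunit, which forms the peptide bond, and nearly every ribosomal protein is present once per ribosome. The mRNAs of ribosomal proteins begin with a terminal oligopyrimidine tract, through which mTOR signalling sets their translation as a group. In skeletal muscle, growth around birth relies on new ribosomes. The core protein RPL3 has a paralogue made in heart and skeletal muscle, RPL3L, which was not analysed here. RPL10, RPL36A, RPL39 and RPS4Y1 were not analysed here either.

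Values are the deposited signal intensities on a linear scale, and differences are given on the log2(signal + 16) scale. A probe set was called changed at an adjusted p under 0.05 (limma, Benjamini-Hochberg over 23999 probe sets). Brightness depends on the probes, so levels were compared between ages and not between genes. The ribosomal protein probe sets were among the brightest on the array, 53 of 63 in the top 1% by mean level, with a median of their mean signals of 35820 against a background of 69.7. RPL30 and RPS15A had mean levels below background, and with RPL26 they were the only members not above background on all 22 arrays.

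The hybridization spikes and the evenness of the RNA moved with age beside every result that follows, and their part in the results was not tested. The mean log2 signal of 18 hybridization spike probe sets, bacterial transcripts added in fixed amount to each hybridization, was 11.75 at 94 dpc, 12.98 at 1 dpn, 12.58 at 28 dpn and 12.34 at 188 dpn. The brightest signal of an array had a median of 50647 at 94 dpc and of 86984, 101584 and 88784 at the later ages. At 1 dpn the ratio of 5' to 3' signal of the GAPDH control was 0.140 to 1.15 (median 0.297), whereas at every other age it lay between 0.731 and 1.26. By this ratio 2 of the 6 arrays at 1 dpn (replicates 1 and 6) were even and 4 had low 5' signal. The other ages were not alike by 2 further controls. The EF1A ratio was 0.785 to 0.953 at 94 dpc, 0.588 to 0.725 at 28 dpn and 0.534 to 0.618 at 188 dpn. The actin ratio went the other way, with 0.0989 to 0.143, 0.147 to 0.238 and 0.139 to 0.193. In such bulk samples fewer cells and less RNA per cell cannot be told apart.

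The ribosomal protein genes differed with age unequally. An F test over the 4 ages called 40 of 63 members (63.5%), 23 of 38 of the large subunit and 17 of 25 of the small, against 51.4% of all probe sets. The members with the largest differences were RPL3, which was lower at 188 dpn than in the fetus by log2 2.16 (4.48-fold), and RPS27L, which was highest at 1 dpn. The median of the member signals on an array was 29650 to 35170 at 94 dpc (median 32275), 33384 to 44876 at 1 dpn (39454), 31381 to 36578 at 28 dpn (32525) and 29771 to 36181 at 188 dpn (33077). The 1 dpn arrays reached highest, and all 4 ages overlapped.

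**Figure D1:**
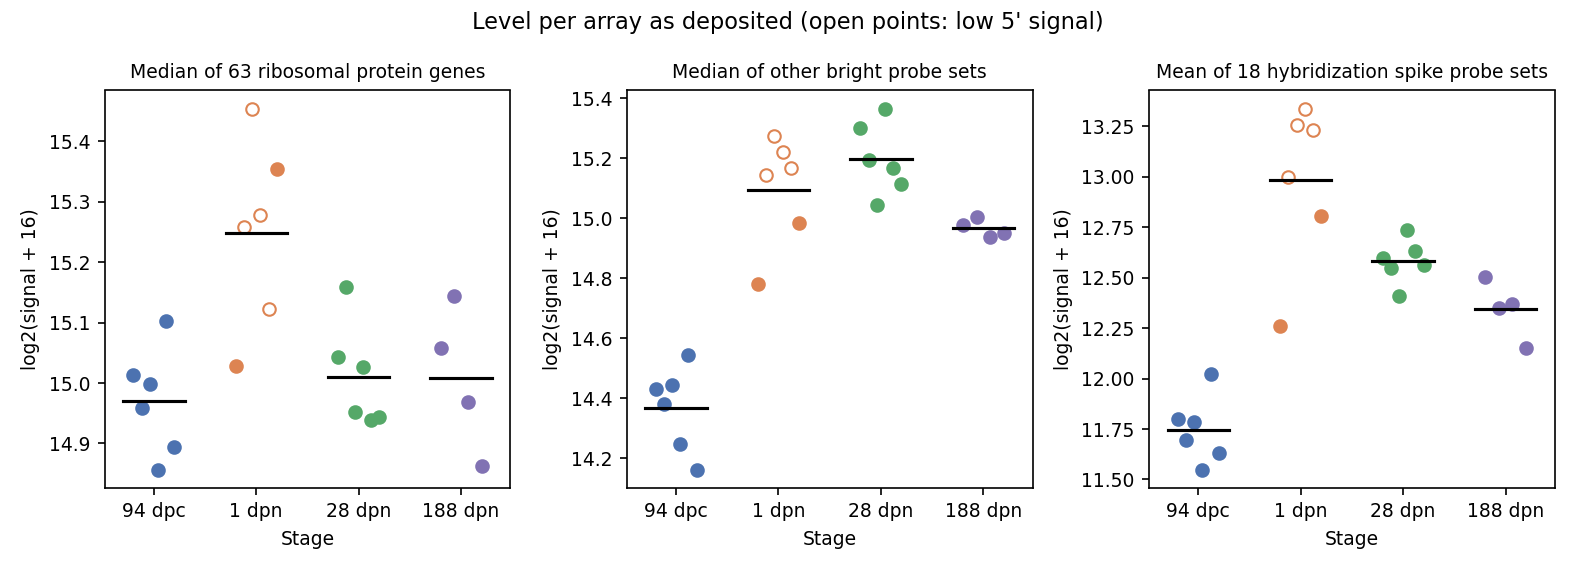
Levels on each of the 22 arrays as log2(signal + 16), by age: the median of the 63 ribosomal protein genes, the median of 199 other probe sets at or above log2 14, and the mean of 18 hybridization spike probe sets. Points are arrays, horizontal bars are means of an age, and open points are the 4 arrays at 1 dpn with low 5' signal; the spikes have a mean of 11.75 at 94 dpc and 12.98 at 1 dpn.

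From 94 dpc to 1 dpn 27 of 63 members were called higher and 3 lower, against 10.9% and 21.7% of all probe sets (32.7% called in either direction). Where the text says at birth or birth step, it means this comparison. It also spans fetal life after 94 dpc, with no sample between, so a change cannot be placed at birth itself. The median difference of the members was log2 0.31, beside -0.08 for all probe sets and 0.61 for the 199 other probe sets at or above log2 14. Of those 199, 62.8% were called higher and 3.52% lower. Of the 53 members at that level 49.1% were called higher and 3.77% lower, so rises were not particular to the members among bright probe sets. Both subunits took part: 15 of 25 small subunit members rose and 1 fell (median 0.49), and 12 of 38 large subunit members rose and 2 fell (median 0.17). The gap between the subunits lay on the low 5' arrays of 1 dpn. Their medians relative to 94 dpc were 0.57 for the small and 0.21 for the large subunit. On the even arrays they were 0.20 and 0.17. Of 11 measured proteins of the small subunit head 8 rose and 0 fell, and of 8 lining the exit tunnel of the large subunit 3 rose and 0 fell. The values of 7 members did not overlap between the ages (16.5% of all probe sets), and 2 changed at least 2-fold. The direction for the family belongs to the deposited scaling, since after quantile normalization the members' median was -0.18 (4 higher, 22 lower) and after scaling to the spikes, chosen after the data were seen, -0.92 (1 higher, 62 lower). Spike scaling subtracts 1.23 from the difference of every probe set, so the median of all probe sets was then -1.32, with 0.908% called higher and 80.5% lower. The members' median stood 0.39 above that of all probe sets as deposited, and also with the spikes or with each array centred on its median probe set, since these only shift all probe sets alike. With median centring the members' median was 0.57 (39 higher, 1 lower) and that of all probe sets 0.18 (19.2% and 14.1%). Quantile normalization, which changes bright and dim probe sets unequally, put the members 0.23 below the median of all probe sets (0.05, with 14.3% higher and 15.8% lower).

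**Figure D2:**
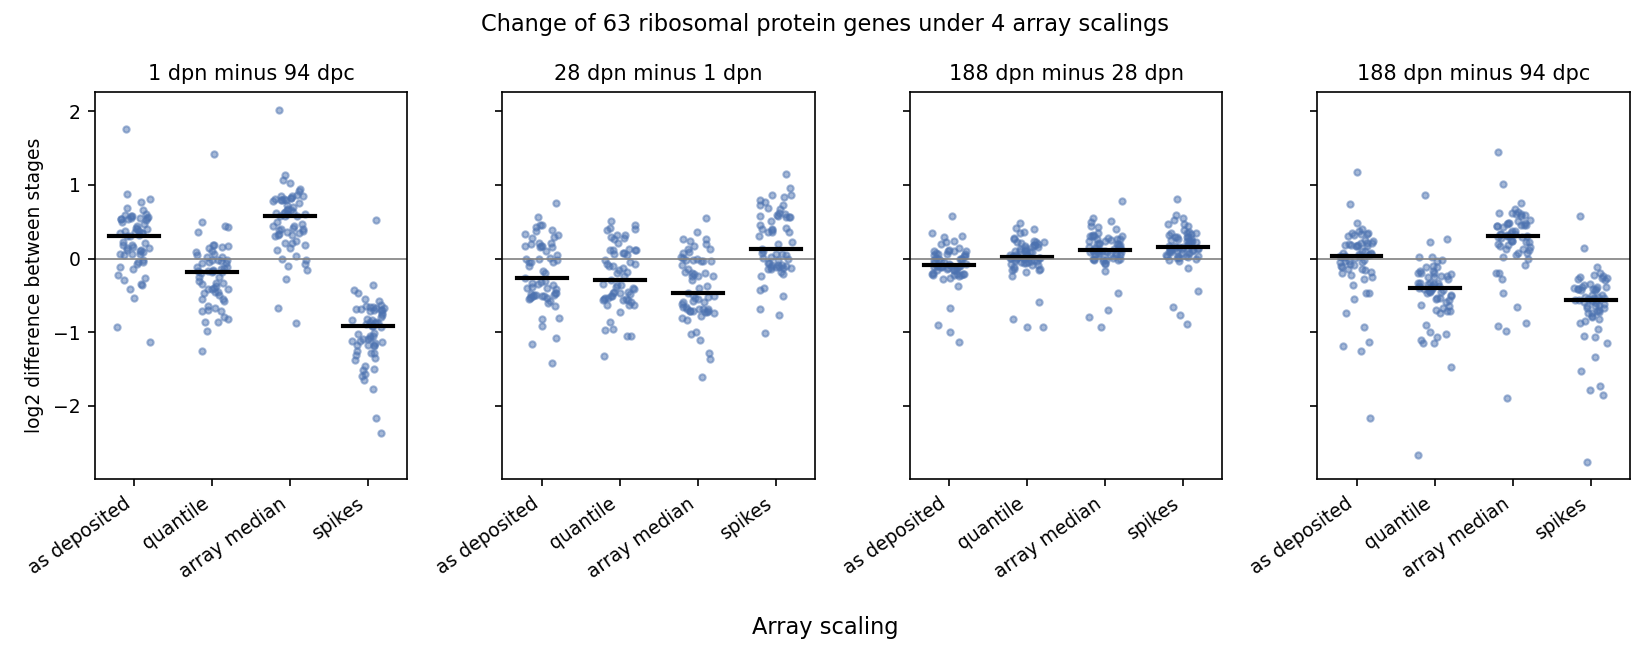
Difference of each of the 63 ribosomal protein genes between ages (log2), for the deposited values, quantile normalization, centring on the array median and scaling to the hybridization spikes; points are genes and bars are medians. The median from 94 dpc to 1 dpn is 0.31 as deposited, -0.18 after quantile normalization, 0.57 after centring and -0.92 after spike scaling, which lowers every probe set by 1.23 in that step.

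The arrays at 1 dpn were not alike for these genes. In 18 members all 4 arrays with low 5' signal lay above both even arrays, and in 13 members all 4 lay below them, against 16.5% and 10.6% of all probe sets. RPS20, a protein of the small subunit head, had signals of 40422 and 51825 on the even arrays and of 70086 to 81560 on the others. RPS24, which belongs to the small subunit, went the other way, with 29526 and 29991 on the even arrays and 15693 to 17654 on the others. RPS4X, the X-linked small subunit protein, had 33384 and 37749 against 18173 to 23049. RPL12, a protein at the base of the stalk, had 30736 and 37232 against 16349 to 25791. RPL26L1, a paralogue of RPL26, had 2301 and 3700 against 778 to 1275. These 5 genes were chosen after their values were seen. Relative to 94 dpc the median member was higher by log2 0.19 on the even arrays and by 0.40 on the low 5' arrays. With only the even arrays in the fit 3 members were called, all higher (7.79% of all probe sets higher, 17.6% lower), and with the GAPDH ratio as a covariate 4, all higher (7.5% and 17.5%). The median of the members was then 0.19 and 0.23, and that of all probe sets -0.15 in both. The fit on the even arrays keeps 2 of the 6 arrays at 1 dpn, so a call lost there, here or below, does not show that a difference is absent.

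Within that step the largest called rises without overlap were RPS27L, RPL27, RPL31, RPS26, RPL34 and RPS25. RPL27, a protein of the large subunit, had signals of 23890 to 32302 at 94 dpc (median 30784) and 34912 to 68096 at 1 dpn (median 58368). Every newborn exceeded every fetus, a difference of log2 0.87 (SE 0.16, adjusted p = 0.000179). RPL31, which lies at the exit of the peptide tunnel, went from 27943 to 35170 (median 31281) to 41061 to 67396 (median 56695), a difference of 0.81 (SE 0.15, adjusted p = 0.000217). RPS26, a small subunit protein near the mRNA exit, went from 30232 to 35502 (median 32346) to 37191 to 69233 (median 59342), a difference of 0.77 (SE 0.15, adjusted p = 0.000361). RPL34 rose by 0.53 and RPS25 by 0.49. Among these 6, RPS27L and RPL31 were the genes also called with only the even arrays, where RPL27 had 0.46 (adjusted p = 0.065) and RPS26 0.37 (adjusted p = 0.0999). The common shift of 1.23 in the spike scaling exceeded the rise of each of them except RPS27L (RPL27 -0.36, RPL31 -0.42, RPS26 -0.47, RPL34 -0.70, RPS25 -0.74). Quantile normalization turned RPL34 to -0.06 and RPS25 to -0.02. The called falls, all with overlapping values, were RPL26L1 (-1.14), RPS24 (-0.53) and RPL6 (-0.42), and none of the 3 was called on the even arrays.

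From 1 dpn to 28 dpn, a step that shares the 1 dpn arrays with the former, 3 members were called higher and 20 lower (13.9% and 8.39% of all probe sets, 22.3% in either direction). The median difference of the members was -0.27, beside 0.10 for all probe sets. For the 199 other probe sets at or above log2 14 it was 0.18, with 27.1% called higher and 12.6% lower. The 53 members at that level had -0.17, with 5.66% higher and 30.2% lower. Of the large subunit 2 rose and 15 fell (median -0.34), and of the small subunit 1 rose and 5 fell (median -0.05). The exit tunnel proteins had 0 rises and 5 falls among 8, and the small subunit head 0 and 3 among 11. In 10 members the ages did not overlap (8.03% of all probe sets). On the even arrays 9 members were called, all lower (11.2% of all probe sets higher, 5.39% lower), with a median of -0.11 against 0.18 for all probe sets. The spike scaling adds 0.40 to every probe set, and 17 members were then higher and 4 lower (median 0.13), against 29.1% and 2.25% of all probe sets (median 0.50). The members lay 0.37 below the median of all probe sets in both cases, and 0.26 below it after quantile normalization. Without replicate 1 of 1 dpn 35 members were called.

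The falls of this step without overlap were led by RPL3 (-1.41), RPS27L (-1.16), RPL31 (-0.83), RPS25 (-0.80), RPL5 (-0.54) and RPL22 (-0.50), and the rises were RPLP1 (0.56) and RPS3A (0.43). RPL31 had 27685 to 36578 at 28 dpn (median 31213), overlapping with its fetal values, and all 28-day animals were below all newborns (SE 0.15, adjusted p = 0.00035). RPS25, a small subunit protein used in internal ribosome entry, went to 18539 to 24239, again with no overlap (SE 0.14, adjusted p = 0.000191). RPL31 and RPS25 remained called on the even arrays, whereas RPL22, RPLP1 and RPS3A did not. In the spike scaling RPL31 was still called, while RPS25 had -0.40 (adjusted p = 0.0836), RPL5 -0.14 and RPL22 -0.09. With the mean of its probe sets RPS25 had -0.10. The second probe set of RPL31, from the same cluster, rose by 0.79 and then fell by 0.68.

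From 28 dpn to 188 dpn little was called among the members. There was 1 rise, RPS27L, and there were 3 falls, RPL3, RPLP2 and RPL26 (3.65% and 8.2% of all probe sets, 11.8% in either direction), with a median of -0.09 against -0.12 for all probe sets. The 199 other probe sets at or above log2 14 had a median of -0.14, with 2.01% called higher and 18.1% lower. In 8 members the ages did not overlap (13.3% of all probe sets). The count rests on single animals: it was 1 or 2 without any of the 4 animals at 188 dpn, or without replicate 2, 3 or 4 of 28 dpn. RPL26 lay near background (44.4 to 148 at 28 dpn; 13.2, 70.0, 43.2 and 15.3 at 188 dpn), so its fall of 1.13 (adjusted p = 0.023) compares levels at the limit of measurement. It was not called without replicate 2 (adjusted p = 0.0519) or 3 (0.0505) of 28 dpn, or without replicate 1 (0.097) or 4 (0.0917) of 188 dpn.

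Over the whole interval, 94 dpc to 188 dpn, which uses none of the 1 dpn arrays for its means, 4 members were called higher and 9 lower (13.6% and 22.5% of all probe sets, 36.2% in either direction). The spread was estimated over all 4 ages together, so the 1 dpn arrays did enter the SE. RPL26L1 had an SD of log2 0.87 at 1 dpn, 0.07 at 94 dpc and 0.10 at 188 dpn. Its difference of -0.55 was without overlap but not called (SE 0.30, adjusted p = 0.159). With only the even 1 dpn arrays in the fit 6 members were called higher and 10 lower (15.8% and 24.7% of all probe sets). The median of the members was 0.03 and that of all probe sets -0.07. The 199 other probe sets at or above log2 14 had a median of 0.59, with 51.3% called higher and 10.6% lower. The 53 members at that level had a median of 0.06, with 5.66% higher and 7.55% lower, so they lay below other probe sets of like brightness. As deposited, all 9 falls were in the large subunit (9 of 38, 23.7%, near the 22.5% of all probe sets, against 0 of 25 in the small subunit). The rises were RPS27L (1.17), RPLP1 (0.74), RPS3A (0.48) and RPS2 (0.40). The falls were RPL3 (-2.16), RPL37 (-1.25), RPL30 (-1.18), RPL26 (-1.14), RPLP2 (-0.93), RPL36AL (-0.74), RPL17 (-0.47), RPL14 (-0.46) and RPL5 (-0.36). Those of RPL30 (means of 76.0 and 31.3) and RPL26 (88.1 and 35.4) compare levels at the limit of measurement, with a background of 69.7. In 20 members the ages did not overlap (35.2% of all probe sets). The split of calls depended on the scaling. After quantile normalization it was 1 higher and 31 lower (17.2% and 18.1% of all probe sets), after median centring 20 and 4 (21.3% and 16.6%), and in the spike scaling, which subtracts 0.60 from every probe set, 1 and 37 (4.53% and 40.2%). RPL3, RPL37 and RPLP2 were lower and called, and RPS27L higher and called, under each of these scalings.

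To measure unequal change alone, the median of the 63 members was set to 0 on each array. From 94 dpc to 1 dpn 6 members were then called higher and 10 lower (6.05% and 31.9% of all probe sets, 37.9% in either direction), from 1 to 28 dpn 15 and 8 (23% and 4.26%, 27.2%), from 28 to 188 dpn 0 and 3 (2.96% and 7.3%, 10.3%), and from 94 dpc to 188 dpn 3 and 9 (12.1% and 22.7%, 34.9%). Within the family RPL3 was lower by 2.20 at 188 dpn than at 94 dpc (SE 0.22), RPL37 by 1.29, RPLP2 by 0.96, RPL36AL by 0.78, RPL17 and RPL14 by 0.50 each and RPL5 by 0.40. RPS27L was higher by 1.13 (SE 0.19), RPLP1 by 0.70 and RPS3A by 0.45. From 94 dpc to 1 dpn RPL26L1 (-1.42), RPS24 (-0.81), RPL6 (-0.70), RPL19 (-0.64), RPL29 (-0.62), RPS4X (-0.56), RPL12 (-0.54) and RPL4 (-0.50) fell within the family. In each of these 8 genes all 4 low 5' arrays lay below the even ones.

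**Figure D3:**
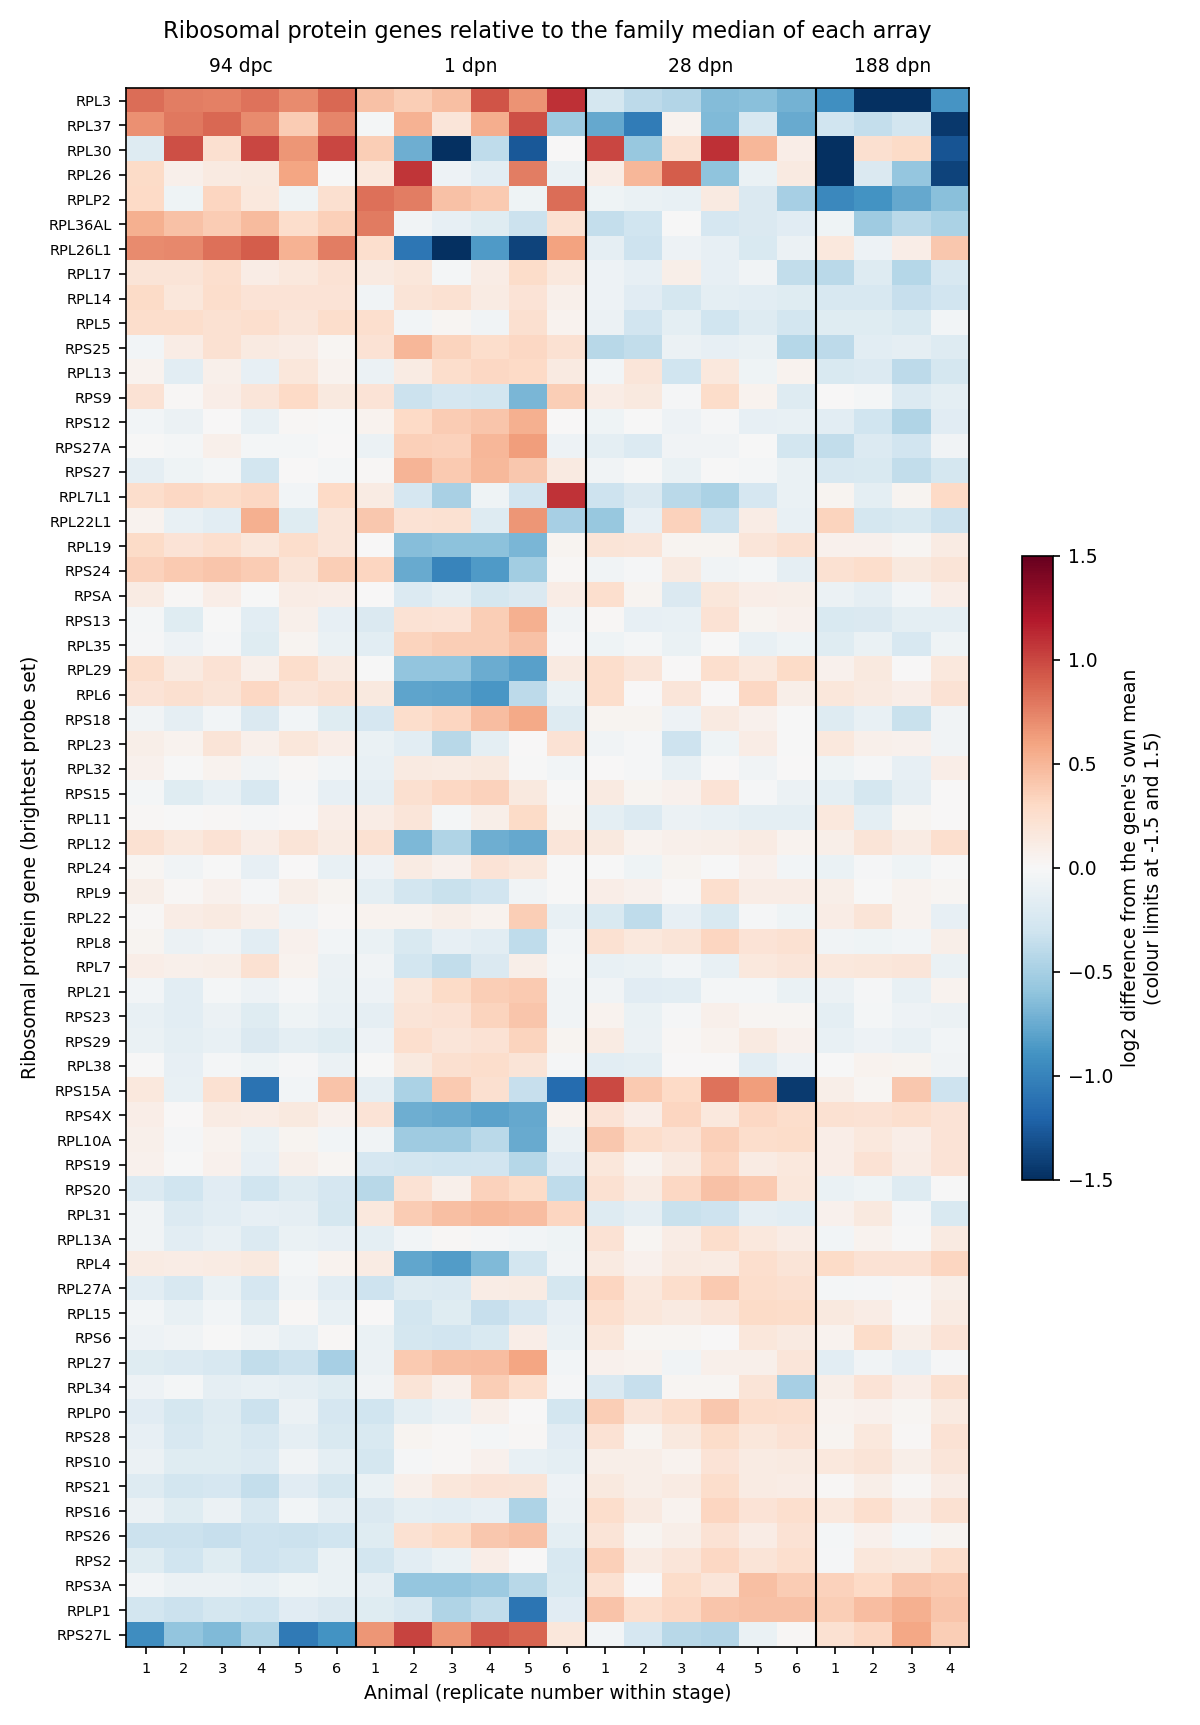
The 63 ribosomal protein genes on the 22 arrays, each array set to its family median and each gene to its own mean (log2; colours limited at -1.5 and 1.5), ordered by the difference from 94 dpc to 188 dpn. RPL3 at the top goes from high to low with age and RPS27L at the bottom is highest at 1 dpn, and replicates 2 to 5 of 1 dpn differ from replicates 1 and 6 in many genes, among them RPS24, RPS4X and RPL4.

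RPL3 lies at the core of the large subunit near the peptidyl transferase centre and joins early in assembly. Its signals were 20814 to 23601 at 94 dpc (median 22098), 18012 to 35744 at 1 dpn (23582), 7703 to 11215 at 28 dpn (8897), and 7206, 3156, 4075 and 6431 at 188 dpn. Fetuses and newborns overlapped, all 28-day animals were below all of them, and all 188-day animals were below all 28-day animals. The mean signal was 22201 ± 993 (SD, n = 6) at 94 dpc and 5217 ± 1913 (SD, n = 4) at 188 dpn. The difference of the mean log2(signal + 16) values was -2.16, which is 4.48-fold on that scale (SE 0.22, adjusted p = 9.73e-08). The step from 94 dpc to 1 dpn was 0.15 (adjusted p = 0.621), that from 1 to 28 dpn -1.41 (SE 0.20, adjusted p = 2.84e-05) and that from 28 to 188 dpn -0.90 (SE 0.22, adjusted p = 0.0104). Over the settings run, the change of RPL3 from 94 dpc to 188 dpn lay between -1.89 with median centring and -2.76 in the spike scaling. Its last step was not called without replicate 2 of 188 dpn (-0.68, adjusted p = 0.065) or in the spike scaling (-0.66, adjusted p = 0.124). RPL3 had 1 probe set.

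The acidic stalk, which recruits translation factors to the large subunit, is built from RPLP0 and pairs of RPLP1 and RPLP2. The 3 genes did not move together. RPLP1 had signals of 28880 to 37472 at 94 dpc (median 32052), 20034 to 44802 at 1 dpn, 47295 to 54552 at 28 dpn (51762), and 52828, 59752, 55751 and 47564 at 188 dpn. Both older ages lay wholly above both younger ones, by 0.56 from 1 to 28 dpn (SE 0.16, adjusted p = 0.0157) and by 0.74 from 94 dpc to 188 dpn (SE 0.18, adjusted p = 0.00256). RPLP2 had 16501 to 22245 at 94 dpc (median 18862), 18397 to 40580 at 1 dpn (32584), 12067 to 19756 at 28 dpn (16717), and 9446, 10539, 10167 and 10430 at 188 dpn. Newborns overlapped with fetuses and with 28-day animals, and every 188-day animal was below every other animal. RPLP2 rose by 0.66 to 1 dpn (SE 0.18, adjusted p = 0.00555), fell by 0.92 to 28 dpn (SE 0.18, adjusted p = 0.000617) and by 0.67 to 188 dpn (SE 0.20, adjusted p = 0.0273).

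RPLP2 ended 0.93 below 94 dpc (SE 0.20, adjusted p = 0.000652), a call kept under the scalings run, from -0.66 with median centring to -1.52 with the spikes. Its last step was not called without replicate 1, 2 or 4 of 28 dpn or without any of the 4 animals at 188 dpn (adjusted p from 0.0514 to 0.0687), nor with median centring (-0.47) or the spikes (-0.44). In the spike scaling RPLP2 was lower at 1 dpn than at 94 dpc (-0.57), and its fall to 28 dpn was not called (-0.51, adjusted p = 0.11). RPLP0 had 35800 to 49964 at 94 dpc and 41075 to 63749 at 1 dpn, a rise of 0.37 (SE 0.14, adjusted p = 0.0429) with overlapping values. RPLP0 lost that call when 1 of 10 arrays was left out (replicates 1, 2, 3, 4 or 6 of 94 dpc, 2 to 5 of 1 dpn, or 2 of 28 dpn; adjusted p from 0.0507 to 0.1). It had -0.18 after quantile normalization and -0.86 in the spike scaling. Relative to the family RPLP1 was higher by 0.70 and RPLP2 lower by 0.96 at 188 dpn than at 94 dpc. RPLP1 lost its call from 94 dpc to 188 dpn after quantile normalization (0.27, adjusted p = 0.266) and in the spike scaling (0.15, adjusted p = 0.659). Its dimmer second probe set fell by 2.70 over the same interval (means of 748 and 123), opposite to the brightest, and the mean of both gave -0.98. The second probe set of RPLP0 likewise fell by 2.38 (means of 457 and 80.3).

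**Figure D4:**
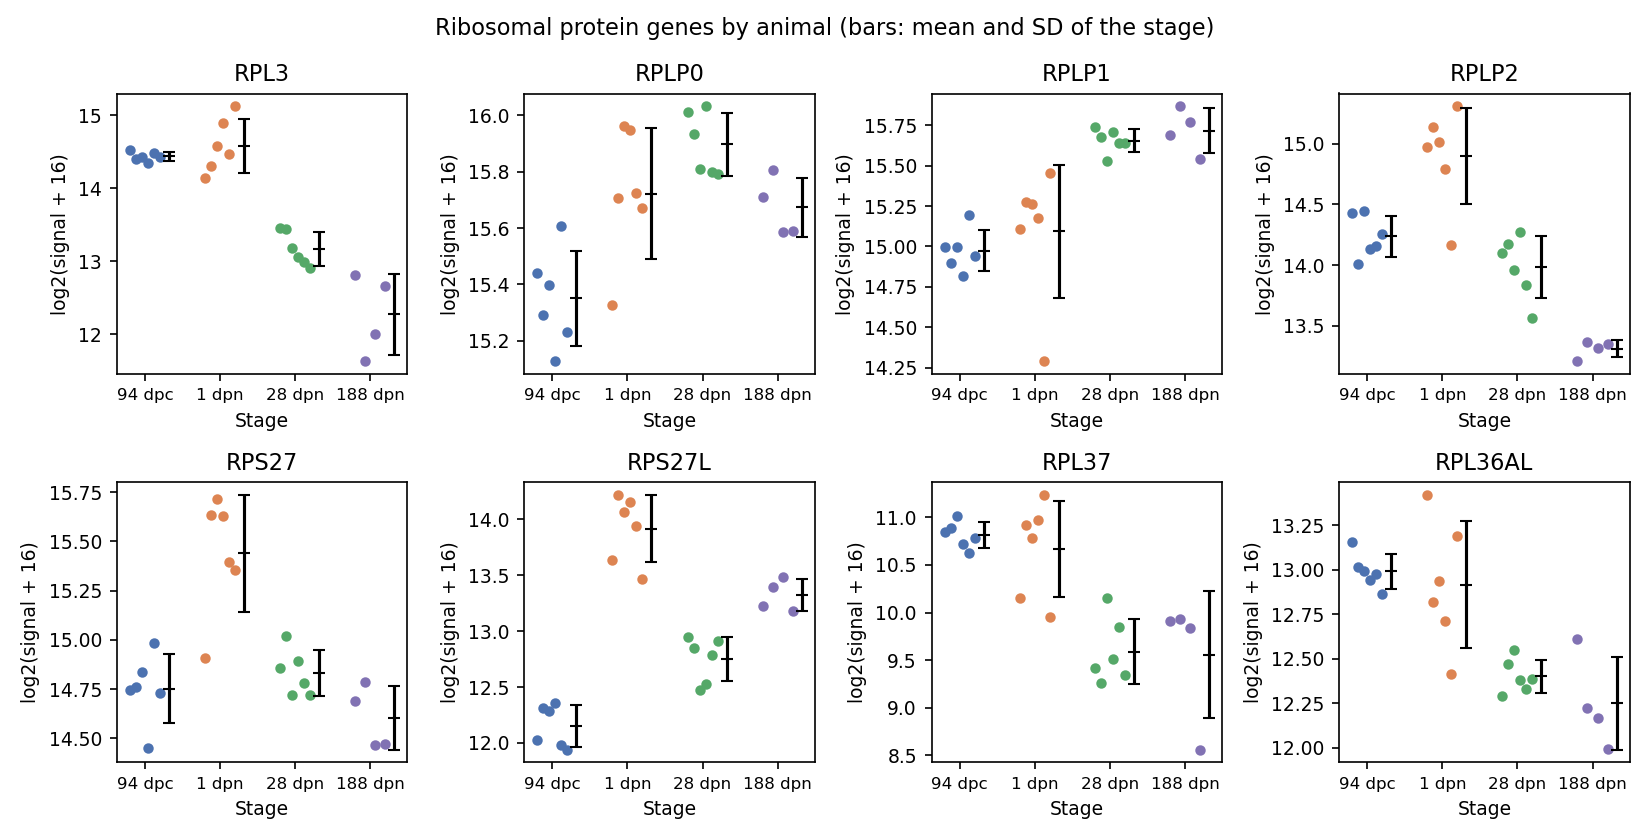
Log2(signal + 16) of RPL3, the stalk genes RPLP0, RPLP1 and RPLP2, RPS27 with its paralogue RPS27L, RPL37 and RPL36AL in each of 22 animals by age; points are animals and bars are the mean and SD of the age. RPL3 and RPLP2 are lowest at 188 dpn, RPLP1 is higher at 28 and 188 dpn than before, and RPS27L is highest at 1 dpn.

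RPS27L, a paralogue of RPS27 known as a target of p53, showed the widest swings of the small subunit. Its signals were 3915 to 5221 at 94 dpc (median 4570.5), 11321 to 19043 at 1 dpn (16403), 5677 to 7879 at 28 dpn (7210.5), and 9570.2, 10772, 11464 and 9270.3 at 188 dpn. No age overlapped with the age before it, and in order of mean the ages ran 94 dpc, 28 dpn, 188 dpn and 1 dpn, of which the last pair overlapped. It rose 3.39-fold from 94 dpc to 1 dpn (log2 1.76, SE 0.16, adjusted p = 4.61e-08), fell by 1.16 to 28 dpn (SE 0.16, adjusted p = 1.68e-05) and was 0.57 higher at 188 dpn than at 28 dpn (SE 0.18, adjusted p = 0.0362). On the even arrays alone its mean at 1 dpn was 1.40 above 94 dpc, and on the low 5' arrays 1.94. The last step was not called without replicates 3, 4 or 5 of 28 dpn or 1, 2 or 3 of 188 dpn (adjusted p from 0.0534 to 0.112), nor after quantile normalization (0.49, adjusted p = 0.0691). At 188 dpn RPS27L stood 1.17 above 94 dpc (SE 0.18, adjusted p = 1.37e-05), and 0.58 (adjusted p = 0.0299) in the spike scaling. RPS27 itself had 22406 to 32379 at 94 dpc, 30774 to 53897 at 1 dpn, 26972 to 33243 at 28 dpn and 22618 to 28237 at 188 dpn. It rose by 0.69 at birth and fell by 0.61 after it, both with overlap, and was -0.15 from 94 dpc to 188 dpn (adjusted p = 0.54). Neither step of RPS27 was called on the even arrays, and its birth step had -0.55 in the spike scaling.

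The other measured paralogues gave fewer calls. RPL7L1, a paralogue of RPL7 in large subunit assembly, had no called step, nor had RPL7, RPL22L1 or RPS4X. RPL22, an RNA-binding protein of the large subunit, fell by 0.50 from 1 dpn (33503 to 46233) to 28 dpn (27196 to 30063; SE 0.13, adjusted p = 0.00869). RPL26L1 was 2929 to 3371 at 94 dpc and 1550 to 1771 at 28 dpn, with 778 to 3700 at 1 dpn, a called fall at birth of 1.14 (adjusted p = 0.00197) that was -0.09 on the even arrays. RPL36AL, a paralogue of RPL36A, had 7438 to 9112 at 94 dpc (median 8089), 5434 to 10948 at 1 dpn, 5003 to 5986 at 28 dpn (5323), and 6232, 4775, 4591 and 4062 at 188 dpn. RPL36AL fell by 0.51 from 1 to 28 dpn with overlapping values (adjusted p = 0.0233), a step not called after quantile normalization (-0.41, adjusted p = 0.0561) or in the spike scaling (-0.11, adjusted p = 0.752). The 188-day animals lay wholly below the fetuses, by 0.74 (SE 0.18, adjusted p = 0.00213), which was -0.47 (adjusted p = 0.0591) with median centring.

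RPL5 and RPL11 bind 5S rRNA together and, when free, hold the p53 inhibitor MDM2. RPL5 had 33337 to 37670 at 94 dpc (median 35902), 35846 to 43186 at 1 dpn (38496), 24430 to 29892 at 28 dpn (26308), and 28415, 30050, 25697 and 27228 at 188 dpn. Both older ages lay wholly below both younger ones. The fall from 1 to 28 dpn was 0.54 (SE 0.12, adjusted p = 0.00207) and the difference from 94 dpc to 188 dpn -0.36 (SE 0.13, adjusted p = 0.0355). The latter was not called without replicate 1, 2, 3 or 5 of 94 dpc or 1, 3 or 4 of 188 dpn (adjusted p from 0.0554 to 0.103), nor with median centring (-0.09). RPL11 had 31296 to 37671 at 94 dpc, 38442 to 47409 at 1 dpn, 30333 to 33913 at 28 dpn and 31762 to 40486 at 188 dpn. The newborns stood above both neighbouring ages without overlap, by 0.37 over 94 dpc (SE 0.12, adjusted p = 0.0208) and 0.49 over 28 dpn (SE 0.12, adjusted p = 0.00474). At 188 dpn it differed from 94 dpc by 0.03 (adjusted p = 0.902). RPL11 had -0.11 at birth after quantile normalization and -0.87 in the spike scaling. Its rise was 0.34 (adjusted p = 0.051) without replicate 4 of 94 dpc. Neither of its steps was called on the even arrays.

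Of the other large subunit genes, RPL37 showed the largest difference after RPL3. Its signals were 1568 to 2049 at 94 dpc (median 1784), 977 to 2400 at 1 dpn (1834), 596 to 1121 at 28 dpn (692), and 945, 958, 899 and 361 at 188 dpn. No 188-day animal reached the fetal range, a difference of -1.25 (SE 0.28, adjusted p = 0.000954), and without replicate 4 of 188 dpn it was -0.92. RPL17 had 32895 to 40442 at 94 dpc and 26546, 32448, 24358 and 25884 at 188 dpn, a difference of -0.47 (SE 0.15, adjusted p = 0.0152). RPL14 had 32536 to 38524 and then 27368, 29158, 24044 and 23238, a difference of -0.46 (SE 0.15, adjusted p = 0.0202). In both genes the ages did not overlap, but neither was called with median centring (-0.20 and -0.19). Without replicate 3 of 188 dpn RPL17 had an adjusted p of 0.0573 and RPL14 one of 0.0608, and RPL14 one of 0.0669 without replicate 4. With the mean of its probe sets RPL17 had -0.08.

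In the small subunit RPS3A, at the mRNA exit, and RPS2, at its entry, were called higher at 188 dpn than at 94 dpc. RPS3A had 31482 to 38461 at 94 dpc (median 34822), 30106 to 41027 at 1 dpn, 42106 to 49375 at 28 dpn (44632), and 49872, 51071, 48879 and 44901 at 188 dpn. The older ages did not overlap with the younger ones, and the differences were 0.43 from 1 to 28 dpn (SE 0.12, adjusted p = 0.0149) and 0.48 from 94 dpc to 188 dpn (SE 0.14, adjusted p = 0.00805). RPS2 had 34923 to 42680 at 94 dpc, 40518 to 62289 at 1 dpn, 52741 to 63264 at 28 dpn, and 49415, 59849, 51917 and 52369 at 188 dpn. Newborns overlapped with fetuses and with both older ages, with a called rise at birth of 0.40 (SE 0.13, adjusted p = 0.0265), and later steps were not called. The difference from 94 dpc to 188 dpn was 0.40 (SE 0.15, adjusted p = 0.0377). It was not called without replicate 2, 4 or 6 of 94 dpc or 2, 3 or 4 of 188 dpn (adjusted p from 0.0512 to 0.118). Over this interval RPS3A was -0.02 and RPS2 -0.25 after quantile normalization, and -0.11 and -0.19 in the spike scaling, whose common shift of 0.60 exceeded both differences.

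RPS27A, made as a fusion with ubiquitin, had 39773 to 47121 at 94 dpc, 42889 to 78216 at 1 dpn, 35553 to 43938 at 28 dpn and 35937 to 42773 at 188 dpn. It rose by 0.56 at birth and fell by 0.64 after it, but neither step was called on the even arrays, and the birth step had -0.03 after quantile normalization and -0.68 in the spike scaling. RPS6, the substrate of S6 kinase downstream of mTOR, had no called step in its brightest probe set. It ranged from 29838 to 34006 at 94 dpc and was 36742, 45425, 35437 and 35723 at 188 dpn (0.24, adjusted p = 0.197). RPSA, also known as the laminin receptor, had differences of 0.08, -0.04 and -0.12 in the 3 steps, with no call.

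Where genes had several probe sets, these did not always move together. The 24 genes with more than 1 probe set had 32 further ones. Of these 14 were called higher and 2 lower from 94 dpc to 1 dpn, against 10.9% and 21.7% of all probe sets. From 1 to 28 dpn 1 was called higher and 14 lower, against 13.9% and 8.39%. In 8 genes (RPL6, RPL12, RPL13A, RPL17, RPL23, RPL24, RPL32, RPS6) a bright and a dim probe set carried the same cluster number, one marked A and the other S. The sources do not state which strand each reads, and the pairs were looked at after the data were seen. The dim partner rose at birth in 8 of 8 genes, by 1.03 to 2.33 (median 1.89), while the median of the bright partners was 0.20. It fell from 1 to 28 dpn in 8 of 8, with differences of -0.85 to -1.76 (median -1.21). For RPL23 the dim probe set gave 727 to 1028 at 94 dpc, 1662, 6790.0, 7826, 7038, 5830.0 and 3428 on the 1 dpn arrays in order of replicate, 1444 to 2246 at 28 dpn and 1084 to 1590 at 188 dpn. For RPL23, as for the dim probe sets of RPL13A and RPS6, the 4 low 5' arrays held the 4 highest signals. The dim probe sets of RPL6, RPL12, RPL17, RPL24 and RPL32 did not follow this order. In RPL6 and RPL32 the even replicate 6 held the highest signal at 1 dpn (1321 and 2096). In RPL12, RPL17 and RPL24 replicate 6 exceeded at least 1 low 5' array. The bright RPL23 probe set overlapped between all ages, and its birth step was 0.07 (adjusted p = 0.765). In 4 further pairs of this kind from other clusters the dim partner rose at birth in 4 of 4. The spikes moved by 1.23 and -0.40 in the same steps, and their part in this was not tested.

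**Figure D5:**
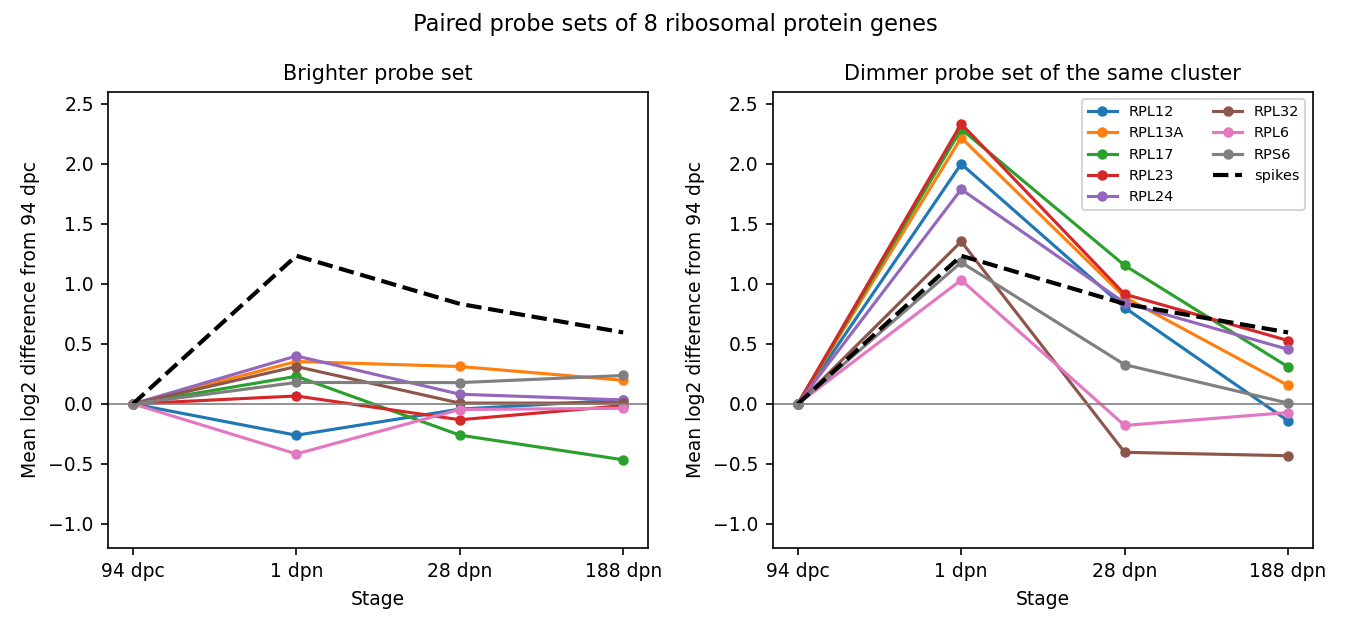
Mean log2 difference from 94 dpc at each age for the brighter (left) and the dimmer (right) probe set of 8 ribosomal protein genes that have both in one cluster, with the mean of the hybridization spikes as a dashed line. The dimmer probe sets are 1.03 to 2.33 higher at 1 dpn and closer to their fetal level at 188 dpn, whereas the brighter ones lie between -0.47 and 0.40 of it at every age.

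Genes around the ribosome were taken from lists chosen with earlier results of these data known, and their shares of calls are given beside those of all probe sets. Of 104 ribosome assembly factors 77 were measured: 10 rose and 8 fell from 94 dpc to 1 dpn (13% and 10.4%, median -0.01; all probe sets 10.9% and 21.7%), and 8 rose and 14 fell to 28 dpn (10.4% and 18.2%, median -0.14; all probe sets 13.9% and 8.39%). To 188 dpn 3 rose and 0 fell (3.9% and 0%, median -0.02; all probe sets 3.65% and 8.2%). Over the whole interval 6 rose and 19 fell (7.79% and 24.7%, median -0.12), near the 13.6% and 22.5% of all probe sets. The genes named next are single calls and describe no shift of the list. SBDS, which releases eIF6 from the large subunit, rose by 1.26 from 94 dpc to 188 dpn (means of 1251 and 3060; SE 0.17, adjusted p = 4.13e-06). PWP2, of the small subunit processome, fell by 2.12 (means of 303 and 71.1; adjusted p = 0.000104). WDR3, of the same complex, fell by 1.30 at birth (adjusted p = 4.77e-06). NMD3, the export adaptor of the large subunit, rose by 1.49 from 1 to 28 dpn (adjusted p = 0.00235). The probe set annotated as BUD23, an 18S rRNA methyltransferase, rose by 2.50 from 94 dpc to 188 dpn (means of 10161 and 57260; adjusted p = 1.43e-09).

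Of 30 genes of rRNA transcription 12 were measured, with 1 rise and 3 falls from 94 dpc to 188 dpn (8.33% and 25%, median -0.20), near the 13.6% and 22.5% of all probe sets. MYC, which drives ribosome production, fell by 2.03 (means of 897 and 211; SE 0.43, adjusted p = 0.000596), and MAF1, the repressor of RNA polymerase III, rose by 1.27 (means of 1039 and 2465; adjusted p = 5.71e-05). Among 20 measured transcripts (of 24) that also carry the oligopyrimidine tract, 3 rose and 5 fell at birth (15% and 25%, median 0.03; all probe sets 10.9% and 21.7%) and 1 rose and 6 fell over the whole interval (5% and 30%, median -0.03; all probe sets 13.6% and 22.5%). The largest change of this list at birth was a rise, that of COX7C (1.16, without overlap, adjusted p = 7.17e-05). The translation initiation factors EIF4B (-0.95), EIF3K (-0.83) and EIF3E (-0.78) fell at birth, EIF4B and EIF3K with overlapping values. HNRNPA1 (-1.83) and the poly(A)-binding protein PABPC1 (-1.58) fell from 94 dpc to 188 dpn, while TPT1 rose by 0.85.

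Translation signalling had 22 measured genes of 42, with 6 rises and 2 falls from 94 dpc to 188 dpn (27.3% and 9.09%, median 0.34; all probe sets 13.6% and 22.5%, median -0.07). The probe set annotated as ATF4, a transcription factor of the stress response, had mean signals of 5760.1 at 94 dpc, 10785 at 1 dpn, 37562 at 28 dpn and 62705 at 188 dpn, a rise of 3.44 (SE 0.35, adjusted p = 6.15e-08). DDIT4L, an inhibitor of mTOR signalling, rose by 1.65 and AKT1 fell by 1.04. TSC2, another such inhibitor, fell by 1.85 at birth (means of 361 and 129) and rose again to a mean of 286 at 28 dpn. Of 12 measured genes (of 24) for ribosomal protein chaperones and ribosome quality control, 4 rose and 1 fell from 94 dpc to 188 dpn (33.3% and 8.33%, median 0.15; all probe sets 13.6% and 22.5%), among the rises NEMF (0.92), which marks stalled chains, and BCCIP (1.06).

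Markers of dividing cells, connective tissue, macrophages and muscle fibres moved with age beside these results. Of all probe sets 10.9% were called higher and 21.7% lower from 94 dpc to 1 dpn. The shares were 13.9% and 8.39% from 1 to 28 dpn, and 13.6% and 22.5% from 94 dpc to 188 dpn. All 15 measured cell cycle genes (of 18) fell at birth, and their summed signal ran from 7351 to 8857 at 94 dpc, 1313 to 3328 at 1 dpn, 2036 to 4536 at 28 dpn and 1378 to 1615 at 188 dpn. Of 10 measured fibroblast and matrix genes (of 13) 8 fell and 1 rose at birth, where the sums ran from 109370.0 to 138440.0 at 94 dpc and 55806 to 108081 at 1 dpn. By 188 dpn 9 of the 10 had fallen from 94 dpc, to sums of 41737 to 72473. Of 11 measured macrophage genes (of 14) 3 fell at birth (27.3%, near the share of all probe sets) and 6 rose from 1 to 28 dpn (54.5%). Their sums were 3998 to 4922 at 94 dpc, 2004 to 4486 at 1 dpn, 3643 to 13886 at 28 dpn and 2097 to 7607 at 188 dpn. Of the 22 muscle markers 9 rose at birth and 16 from 1 to 28 dpn, with sums of 466103 to 617684, 624612 to 853951 and 1172480.0 to 1394920.0 at the first 3 ages and 1152130.0 to 1174770.0 at 188 dpn. Of the 15 cell cycle genes 15 had means above background at 94 dpc, 10 at 1 dpn, 15 at 28 dpn and 6 at 188 dpn. Of the 11 macrophage genes 9, 9, 10 and 11 did. All 10 matrix genes and all 22 muscle markers were above background at every age. The part of these lists in the changes of the ribosomal protein genes was not tested.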

How the data were processed

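The authors deposited 1 signal intensity per probe set and array. The submitters' processing notes name GCOS 1.1.1. The sources used here state no further step. The signals were linear and already scaled, since all arrays shared 1 trimmed mean (500, with 2% of probe sets cut from either end). Total RNA (0.5 ug) had been made into biotinylated cRNA, per the labels' protocols. After 124 control probe sets were left out, log2(signal + 16) of 23999 probe sets was fitted with limma 3.58.1 in R 4.3.3, with 1 mean per age over all 22 arrays. The spread of a probe set was 1 estimate over all ages, so the uneven 1 dpn arrays also enter the SE of comparisons between other ages. P-values were adjusted by Benjamini-Hochberg over all probe sets of each comparison. Background was the 95th percentile of 23 control probe sets without a target (signal 69.7). The number of arrays (6, 6, 6 and 4) limits precision.

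The members and lists were chosen with earlier results of these data known. Named genes were, per comparison, the 6 largest called rises and falls without overlap between ages, paralogue pairs, stalk and 5S particle genes, RPS27A, RPS6, RPSA and up to 4 called genes of each further list. Other genes named were chosen after their values were seen. Alternatives were array scaling, pseudocounts of 1 and 64, variance model, array weights, ages in the fit, a brightness filter, the probe set per gene, RNA evenness, and each animal left out. In simulated data the fit recovered, of probe sets altered by log2 2, 90.9, 93.9, 87.9 and 86.4% in the 4 comparisons in the order reported. Of those altered by log2 1 it recovered 32.8, 29.9, 23.9 and 20.9%, and of those altered by log2 0.5 it recovered 4.48, 0, 1.49 and 0%. Only 66 or 67 probe sets were altered per size, far fewer than were called in the data, so these shares are not the power in the data. Probe sets of paralogues and pseudogenes may share targets: 9 members' brightest probe sets are of types that can bind several transcripts.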

Additional observations from a re-analysis of the deposited data

Results flagged for a closer look

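In 10 of 120 groups of 4 to 6 animals (8.33%) 1 animal's signal stood far from the rest by Dixon's test at the 95% level, where chance gives about 1 in 20. At 94 dpc replicate 6 had an RPL7 signal of 25239, against 29484 to 31938 in the others. At 1 dpn replicate 6 had an RPL7L1 signal of 8228 (others 2698 to 3517), replicate 5 an RPLP1 signal of 20034 (others 35253 to 44802), and replicate 1 an RPL11 signal of 38442 (others 45023 to 47409) and an RPL17 signal of 37581 (others 44228 to 48026). At 28 dpn replicate 5 had an RPL26L1 signal of 1550 (others 1700 to 1771, in whole signal units), and replicate 6 an RPS27A signal of 35553 (others 41662 to 43938) and an RPL17 signal of 24946 (others 30940 to 34515). At 188 dpn replicate 2 had an RPS6 signal of 45425 (others 35437 to 36742) and replicate 4 an RPL37 signal of 361 (others 899 to 958).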

How the results depend on the processing

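The count of called members and their median change depended mostly on how arrays were scaled and on the 1 dpn arrays with low 5' signal. Scaling to the hybridization spikes was added after the data were seen. From 94 dpc to 1 dpn the 30 calls became 16 with the members' median set to 0, 4 with the GAPDH ratio as a covariate, 3 on the even arrays and 63 with the spikes. The median change of the members became -0.18 after quantile normalization, 0.57 with median centring, 0.19 on the even arrays and -0.92 with the spikes. From 1 to 28 dpn the 23 calls became 36 with trended and robust variances, 36 with a brightness filter, 10 with only the ages compared, 11 with the covariate and 9 on the even arrays. The median of the members became -0.46 with median centring, -0.11 on the even arrays and 0.13 with the spikes. From 28 to 188 dpn the 4 calls became 2 after quantile normalization, 2 with median centring and 1 with the spikes, and the median of the members 0.12 with median centring and 0.15 with the spikes. From 94 dpc to 188 dpn the 13 calls became 32 after quantile normalization, 24 with median centring, 20 with array weights and 38 with the spikes, and the median of the members -0.40, 0.30 and -0.56 with the first, the second and the last of these. Spike scaling and median centring moved all probe sets by the same amount as the members. The cause of the other shifts was not tested.

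Spike scaling shifts the difference of every probe set by 1 constant (-1.23 from 94 dpc to 1 dpn and -0.60 from 94 dpc to 188 dpn), so the following turns are 1 shift seen in several genes, not separate results. With the spikes, the difference from 94 dpc to 1 dpn became -0.36 for RPL27, -0.42 for RPL31, -0.47 for RPS26, -0.70 for RPL34, -0.74 for RPS25, -0.55 for RPS27, -0.86 for RPLP0, -0.57 for RPLP2, -0.68 for RPS27A and -0.87 for RPL11, and that from 94 dpc to 188 dpn -0.11 for RPS3A and -0.19 for RPS2. After quantile normalization the first became -0.058 for RPL34, -0.018 for RPS25, -0.18 for RPLP0, -0.026 for RPS27A and -0.11 for RPL11, and the second -0.0196 for RPS3A and -0.25 for RPS2. With the mean of a gene's probe sets RPLP0 had -0.21 and RPS27A -0.37 in the first and RPLP1 -0.98 in the second.

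When each animal was left out in turn, the members called ranged from 22 to 36, 21 to 35, 1 to 4 and 9 to 16 in the 4 comparisons. The medians of the members ranged from 0.27 to 0.36, -0.38 to -0.21, -0.14 to -0.05 and -0.0031 to 0.07. Of 41 results for single genes, all kept their call and direction with array weights and with pseudocounts of 1 or 64. With only the even arrays, which leave 2 arrays at 1 dpn, 15 lost the call, with the covariate 13 and with only the ages compared 8. No paired analysis was possible because animals were numbered in accession order and the labels tie no animal of one age to one of another. Arrays of 6, 6, 6 and 4 animals limit the size of difference that can be seen.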
